A study of Mus musculus with 6 samples.

Results

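The genes described here are the G protein-coupled receptors other than chemokine receptors that carry a systematic receptor name. They were chosen by symbol alone: the symbol starts with Gpr and a digit, or with Adgr, P2ry, S1pr, Lpar, Ptger, Fpr, Adora, Hrh, Cysltr or Ltb4r, and holds neither -ps nor os. The rule found 78 of the 15443 gene symbols, and all 78 are protein-coding genes of GENCODE M21. Of these, 71 had a mean of at least 5 normalized counts over the libraries and were tested together with all 13543 genes that passed this filter. The other 7 (Adgrb3, Adgrd1, Adgrf5, Adgrg2, Gpr21, Gpr161 and Lpar3) lay below it, with 0 to 8.70 normalized counts in any library.

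Each library is RNA from a 3-day culture of marrow cells (C57BL/6J, an inbred mouse strain, genotype WT). Cells of the first group received recombinant human midkine at 10 ng/ml together with FLT3LG at 50 ng/ml (libraries rMDK 3, 4 and 5), and cells of the control group received FLT3LG alone (libraries control 1, 2 and 4). FLT3LG is the cytokine that drives dendritic cell (DC) growth from marrow progenitors, and midkine is a secreted heparin-binding growth factor. The labels do not state if replicates are separate animals or cultures, and p-values then measure the spread between these libraries alone, possibly a technical one. The cultures are marrow cells for which the labels name no sort, so fewer cells of a type and less RNA per cell cannot be told apart in any value below.

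Receptors of this superfamily cross the membrane in several helices and, when a ligand binds, activate heterotrimeric G proteins. The Gs form raises cyclic AMP, Gi lowers it, Gq activates phospholipase C, and G12 and G13 act on the cytoskeleton. On myeloid cells they read nucleotides, lipids, histamine, bacterial peptides, protons and contact with neighbouring cells, and so guide migration, activation and survival.

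As a set, the receptors took a small and even share of the RNA. Their reads made up 0.171, 0.175 and 0.168% of the library in rMDK 3, 4 and 5, against 0.169, 0.159 and 0.168% in control 1, 2 and 4. The values did not move as one: of 71 receptors tested, 11 lay higher in every rMDK library than in every control (15.5%, against 15.5% of all genes), 15 lay lower (21.1%, against 15.3% of all genes), and 45 overlapped. The 26 without overlap are 36.6% of the receptors, against 30.8% of all genes tested. The median log2 fold change was 0.14 over the receptors and −0.0040 over all genes, but −0.018 over the receptors without rMDK 5. Fold changes here are midkine minus control on the log2(normalized count + 1) scale, which understates the change of low genes.

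No receptor passed the threshold of 0.05 in limma with all 6 libraries (0 of 71, background 0% of all genes; smallest adjusted p = 0.0757, for S1pr3). At an unadjusted limma p under 0.05 there were 18 receptors (7 higher, 11 lower), or 25.4%, against 19.7% of all genes. edgeR on the same libraries also called 0 receptors (background 0.0738%: 0.0443% higher, 0.0295% lower). DESeq2 called 6 of 78, or 7.69%, against 4.43% of all genes (2.97% higher, 1.46% lower), and gave no adjusted p to 16 receptors. The 3 that rose in DESeq2 were Adgre1, Adgre5 and Gpr137b, and 3 fell, among them Gpr171 and S1pr3. Without rMDK 5, limma called 18 of 71 receptors, 9 higher and 9 lower, or 25.4% against 18.4% of all genes (9.92% higher, 8.52% lower), and edgeR called the same 18 (background 18.5%: 10.5% higher, 7.97% lower). Without that library, 38 of 71 receptors (53.5%) lay apart, against 47.6% of all genes. With libraries weighted by their fit (array weights in limma), 33 of 71 receptors were called, 16 higher and 17 lower. That is 46.5%, against 37.5% of all genes (19.1% higher, 18.4% lower). The weights were 0.727, 4.36 and 0.0967 in rMDK 3, 4 and 5, and 2.3, 1.04 and 1.36 in control 1, 2 and 4. Among the rMDK libraries these calls thus rest mostly on rMDK 4.

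rMDK 5 stood apart from the other 5 libraries, with a score of 86.0 on the first principal component (57.1% of the variance) against −28.2 to 1.94. Library size ranged from 5985684 to 7233960 reads. Values of the receptors the results turn on are therefore given per library, and those of the others by range. The limma result without rMDK 5 is given where it makes a call and for some others. It sets only rMDK 3 and 4 against the controls, and the fits without any other single library called 0 genes. For Adgre1 and Gpr171, for example, the limma adjusted p without rMDK 4 was 0.259 each. Results without rMDK 5 are therefore no independent support for those with all 6 libraries.

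**Figure D1:**
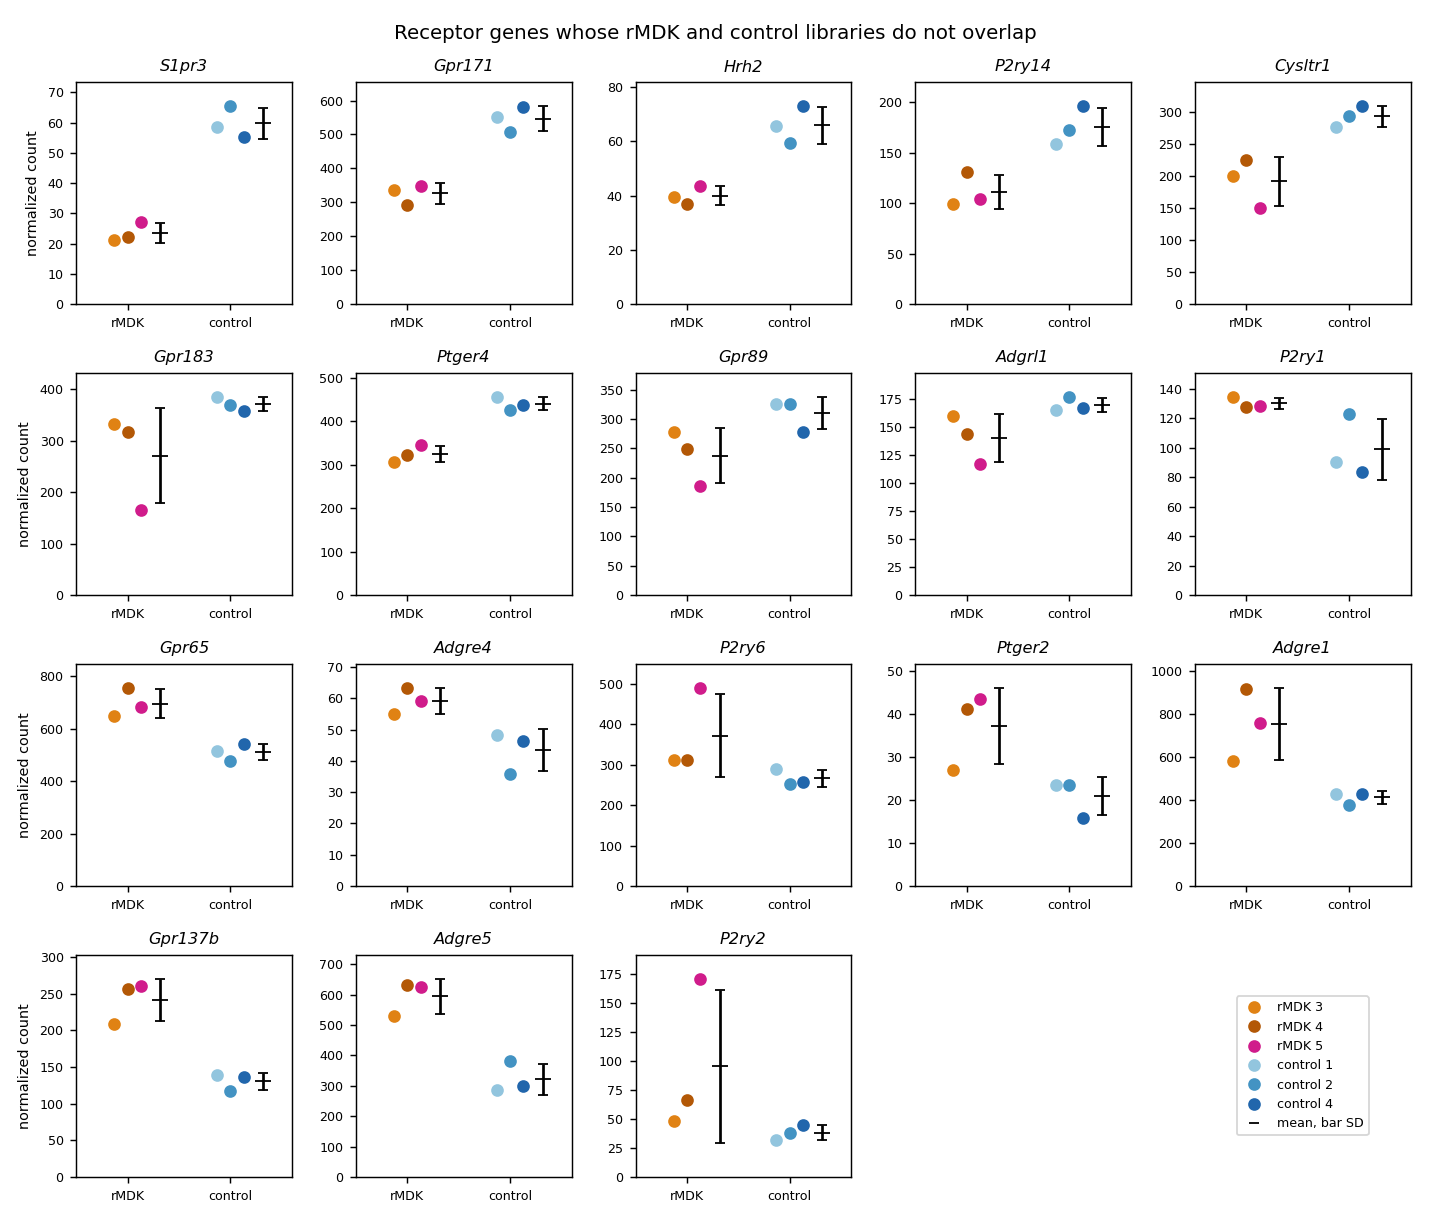
Normalized counts (y axes, from 0) of 18 receptor genes with a mean of at least 20 whose groups did not overlap, in rMDK 3, 4 and 5 and in control 1, 2 and 4. Each point is a library and the dash with its bar is the group mean ± SD (n = 3). S1pr3 lay at 21.3 to 27.2 in rMDK and 55.2 to 65.5 in control libraries, while P2ry2 and P2ry6 reached their highest values in rMDK 5 (171 and 490.1).

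Marker genes of several blood cell types also lay apart between the groups, where 15.5% of all genes tested lay higher and 15.3% lower. Of 11 neutrophil markers 8 lay higher in every rMDK library and 0 lower. Their summed level was 176820 to 188113 normalized counts in rMDK and 123741 to 137413 in control libraries. S100a8 and S100a9 held most of this sum (means 84484 and 63253 in rMDK, 66659 and 39939 in control libraries). Of 10 macrophage markers 7 lay higher and 0 lower (sums 19484 to 23949 against 13920 to 15765). Of 7 measured mast cell, basophil and eosinophil markers 4 lay higher and 0 lower (sums 1749 to 2707 against 964 to 1211). Of 8 conventional DC markers 6 lay lower and 0 higher (sums 856 to 1032 against 1601 to 1667). For plasmacytoid DC, 3 of 7 markers lay lower (sums 4489 to 4963 against 5309 to 6411). B cell markers lay higher in 3 of 7 cases, with sums of 2735, 2363 and 1254 in rMDK 3, 4 and 5 and 1189 to 1669 in controls. For stroma and endothelium, 2 of 5 tested markers lay lower (sums of 6 genes 332 to 506 against 601 to 1085). No marker of these lists was at 0 in any library except Lepr, at 0 in 1, while the basophil and mast cell marker Fcer1a had no value. Platelet markers lay higher in 2 of 6 cases (sums 9549 to 13869 against 7424 to 8307). Among T and NK cell markers 0 of 4 tested lay apart (sums 80.8 to 189 against 110 to 140), and among erythroid markers 1 of 2 lay higher (sums 61.7 to 111 against 22.6 to 41.4), with Cd3e, Ncr1, Klf1 and Alas2 without values and Klrb1c at 0 in 1 library. The part of these cell types in the receptor values was not tested.

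**Figure D2:**
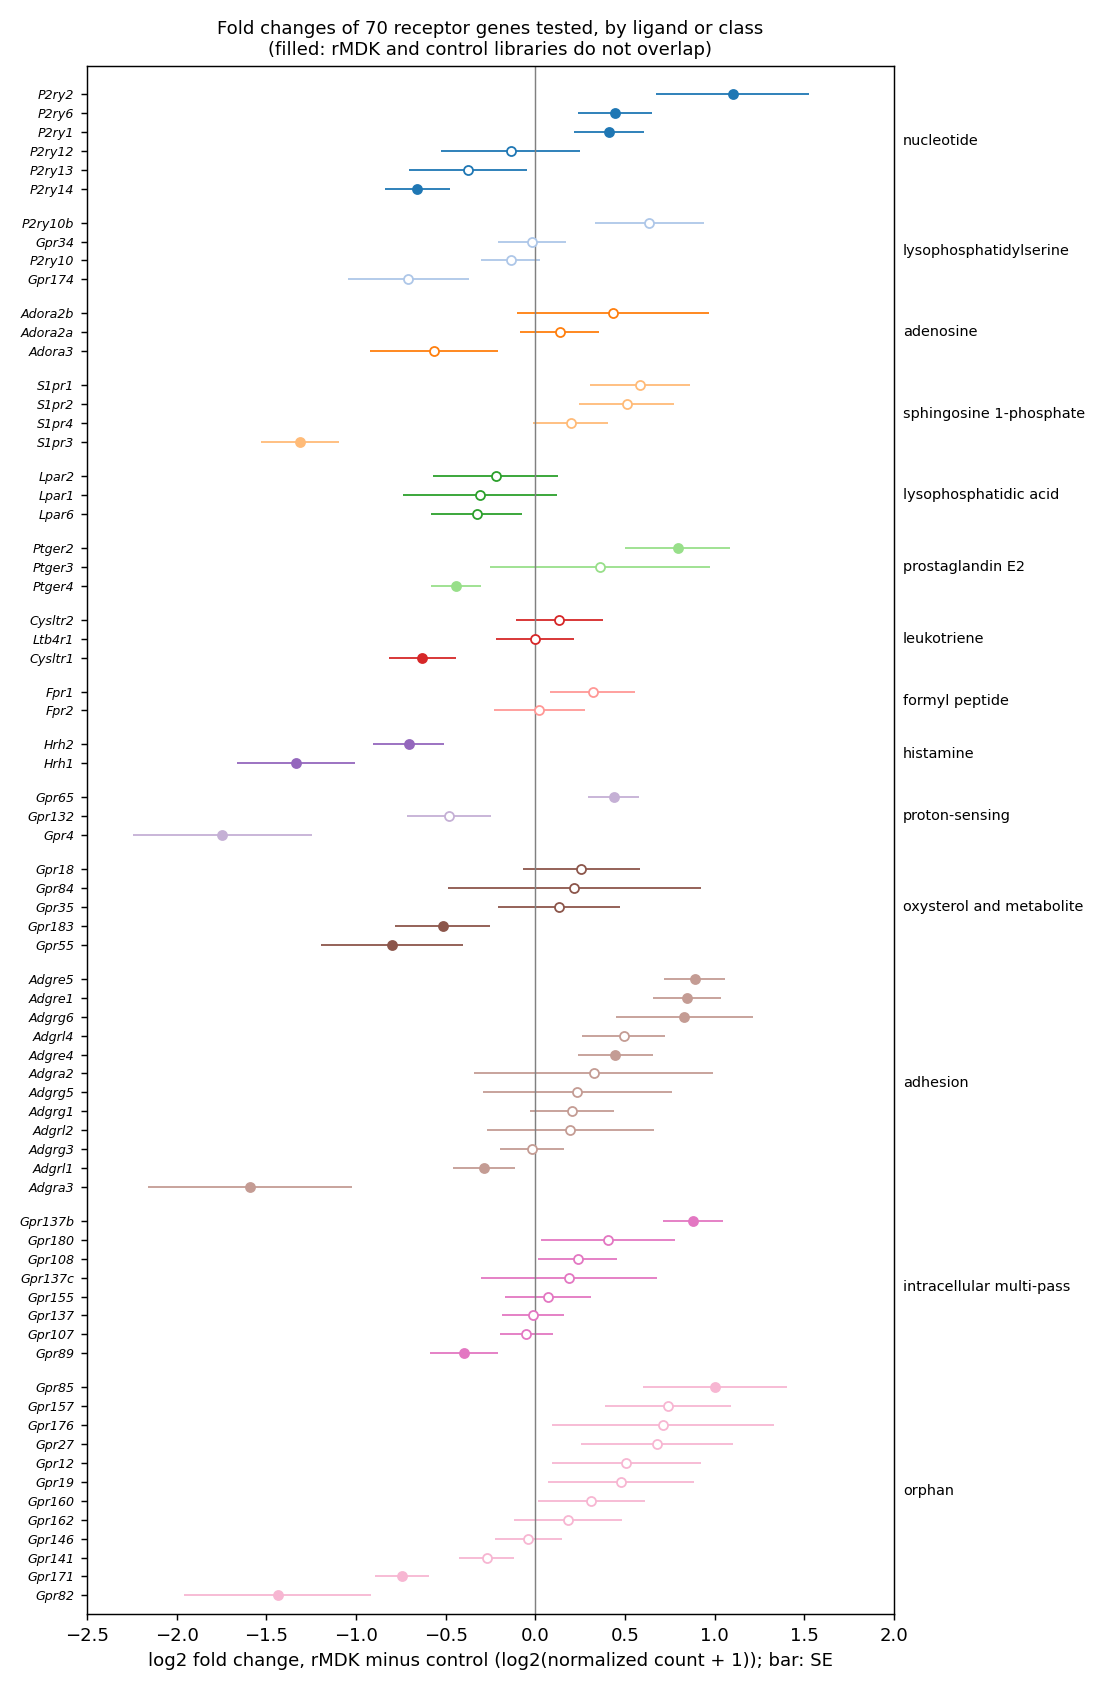
Log2 fold change, rMDK minus control, of 70 receptor genes tested (x axis, log2(normalized count + 1) scale; bars are SE), grouped by ligand or class. Filled points are the 25 genes drawn whose groups did not overlap; most classes held genes on both sides of 0, while both histamine receptors and the 3 lysophosphatidic acid receptors lay below 0.

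Upstream sequence is shown for receptors that lay apart with all 6 libraries, had a mean of at least 20 and were called without rMDK 5, since the results turn on these. Of them, those with 1 window in the RefSeq promoter table (GRCm38.p6), or with a window that holds a searched motif, are printed. The table matched 63 of the 78 receptors. Each line gives the 250 bases before an annotated start, 5′ to 3′ on the gene's strand, and capitals mark letters of the myeloid factor PU.1 (GAGGAAGT), of AP-1 (TGANTCA) or of C/EBP (TTGCNNAA), searched on both strands. Which start was used in these cells cannot be read from 3′ end counts, and no match says only that the letters are not in this window.
S1pr3, chr13:51408368-51408617, plus strand: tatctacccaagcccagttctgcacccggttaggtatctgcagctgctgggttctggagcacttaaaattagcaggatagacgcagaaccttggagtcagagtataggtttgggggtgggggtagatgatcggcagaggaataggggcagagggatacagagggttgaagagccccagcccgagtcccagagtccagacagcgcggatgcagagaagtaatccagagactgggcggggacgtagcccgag
Ptger4, chr15:5244188-5244437, minus strand: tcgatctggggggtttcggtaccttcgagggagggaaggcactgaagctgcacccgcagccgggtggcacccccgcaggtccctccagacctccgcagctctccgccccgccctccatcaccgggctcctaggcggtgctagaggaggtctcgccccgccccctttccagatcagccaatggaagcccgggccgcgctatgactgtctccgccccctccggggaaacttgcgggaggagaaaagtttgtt
Hrh2, chr13:54191883-54192132, plus strand: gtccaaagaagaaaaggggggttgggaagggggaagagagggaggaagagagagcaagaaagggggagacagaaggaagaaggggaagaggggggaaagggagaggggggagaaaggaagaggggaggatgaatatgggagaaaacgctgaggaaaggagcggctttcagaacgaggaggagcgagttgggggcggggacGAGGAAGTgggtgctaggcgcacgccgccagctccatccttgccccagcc
P2ry14, chr3:59153493-59153742, minus strand: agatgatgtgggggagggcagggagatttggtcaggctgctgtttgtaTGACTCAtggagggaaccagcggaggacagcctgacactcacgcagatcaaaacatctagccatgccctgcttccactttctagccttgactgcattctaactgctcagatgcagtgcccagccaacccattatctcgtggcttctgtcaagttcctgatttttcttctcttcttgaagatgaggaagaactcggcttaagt
Gpr65, chr12:98268385-98268634, plus strand: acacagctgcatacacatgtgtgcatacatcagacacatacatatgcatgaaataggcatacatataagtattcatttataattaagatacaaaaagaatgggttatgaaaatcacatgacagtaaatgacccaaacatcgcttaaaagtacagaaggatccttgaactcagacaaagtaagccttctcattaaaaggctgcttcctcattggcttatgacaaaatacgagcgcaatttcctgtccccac
The Hrh2 window holds the PU.1 letters and that of P2ry14 the AP-1 letters, while those of S1pr3, Ptger4 and Gpr65 hold none of the searched letters. The table gives 2 starts for Hrh2 and 4 for P2ry14, of which 1 is shown each. Among the P2ry14 windows not shown, one also holds AP-1 letters and another holds C/EBP letters. Genes with several starts were printed only if a window held a motif, so the matches of Hrh2 and P2ry14 follow from that choice. Base composition differed widely: the Ptger4 window has 19 CpG dinucleotides and 66.8% G and C, and the Gpr65 window has 3 and 36.8%. Over all 89 windows of the receptors, 8.99% held the PU.1 letters, 10.1% the AP-1 letters and 15.7% the C/EBP letters. Of all 32851 windows in the table, 2.44, 6.75 and 9.56% held them, in the same order. Windows of 1 gene can overlap, so these shares are descriptions, and a match is not a bound site.

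Sphingosine 1-phosphate, a blood lipid that directs the traffic of leukocytes, is read by 4 of the receptors. S1pr3 had 21.3, 22.2 and 27.2 normalized counts in rMDK 3, 4 and 5 against 58.5, 65.5 and 55.2 in control 1, 2 and 4. Its mean was 23.6 ± 3.21 in rMDK and 59.7 ± 5.22 in control libraries (SD, n = 3 each), a log2 fold change of −1.31 ± 0.218 SE (limma adjusted p = 0.0757). It lay below every control in all 3 rMDK libraries and fell in DESeq2 (adjusted p = 0.00363) and in limma without rMDK 5 (−1.42, adjusted p = 0.000344). S1pr3 maps to chromosome 13 (51408639 to 51422797, plus strand, GRCm38). S1pr1, which guides the exit of lymphocytes from tissues, had 253, 281 and 132 normalized counts in rMDK 3, 4 and 5 against 135, 137 and 149 in control 1, 2 and 4. It was high in rMDK 3 and 4 and just below the controls in rMDK 5, so the groups overlapped (log2 fold change 0.58; 0.92 without rMDK 5, limma adjusted p = 0.000160). S1pr2, which signals through G12 and G13 and restrains migration, had 310.3, 379 and 664 normalized counts in rMDK 3, 4 and 5 against 311, 301 and 289 in control 1, 2 and 4. Only rMDK 4 and 5 lay above all controls, and S1pr2 passed in none of these fits except limma with array weights (0.30, adjusted p = 0.0349). S1pr4, found mainly on blood cells, had 107 to 152 normalized counts in rMDK and 90.3 to 119 in control libraries, with overlap. The summed level of the class was 823 ± 143 in rMDK and 610 ± 13.7 in control libraries (mean ± SD, n = 3 each). The higher sums came mostly from S1pr1 in rMDK 3 and 4 and from S1pr2 in rMDK 5, genes whose groups overlapped. S1pr3, the only member apart, lay lower.

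The receptors for lysophosphatidic acid, a growth factor-like lipid, held the most abundant gene of the set. Lpar6, which couples to G12 and G13, had 875, 964 and 483 normalized counts in rMDK 3, 4 and 5 against 953, 932 and 905 in control 1, 2 and 4. It lay low in rMDK 5 alone, and its log2 fold change was −0.33 with all 6 libraries and −0.018 without rMDK 5. The Lpar6 gene shares 408 exonic bases with Rb1 on the opposite strand. Lpar2 had 36.7, 28.5 and 75.3 normalized counts in rMDK 3, 4 and 5 against 49.2, 45.0 and 57.2 in control 1, 2 and 4. Lpar1 had 15.5, 7.39 and 23.6 normalized counts in rMDK 3, 4 and 5 against 21.5, 18.4 and 13.8 in control 1, 2 and 4. Both were lower in rMDK 4 than in any control and higher in rMDK 5 than in any control, so neither had a common direction. They were called lower with array weights (−0.73, adjusted p = 0.00384 for Lpar2, and −1.04, adjusted p = 0.00798 for Lpar1, limma), a setting in which rMDK 5 had a weight of 0.0967 and rMDK 4 one of 4.36.

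All 4 lysophosphatidylserine receptors overlapped between the groups with all 6 libraries. P2ry10b, the neighbour and relative of P2ry10, had 73.5, 90.8 and 40.9 normalized counts in rMDK 3, 4 and 5 against 45.1, 43.0 and 36.5 in control 1, 2 and 4. It was high in rMDK 3 and 4 and inside the control range in rMDK 5 (without rMDK 5, 0.96, limma adjusted p = 0.00329). P2ry10 had 104 to 131 in rMDK and 125 to 132 in control libraries, Gpr34 had 48.3 to 52.6 and 47.2 to 52.3, and Gpr174 had 20.9 to 43.5 and 39.0 to 67.5, all with overlap. P2ry10 and P2ry10b, 43953 bp apart on the X chromosome, had log2 fold changes of −0.14 and 0.64. Both genes lay inside the control range in rMDK 5, so these signs set no direction apart.

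The prostaglandin E2 receptors split by member. Ptger4, which couples to Gs and raises cyclic AMP, had 307, 322 and 345 normalized counts in rMDK 3, 4 and 5 against 456, 428 and 438 in control 1, 2 and 4. Its mean was 325 ± 18.9 in rMDK and 441 ± 14.7 in control libraries (SD, n = 3 each), a log2 fold change of −0.44 ± 0.139 SE (limma adjusted p = 0.162). The 3 rMDK values all lay below the controls, and Ptger4 fell without rMDK 5 (−0.48, limma adjusted p = 0.00498). Ptger2, the other receptor of the class that couples to Gs, had 27.1, 41.2 and 43.6 normalized counts in rMDK 3, 4 and 5 against 23.6, 23.5 and 15.8 in control 1, 2 and 4. All 3 rMDK values lay above the controls (log2 fold change 0.79, limma adjusted p = 0.204), by a small margin in rMDK 3. Ptger3, which couples to Gi, had 51.2 and 39.1 in rMDK 3 and 4, 233 in rMDK 5 and 41.9 to 86.8 in control libraries. The summed level of the class was thus 386 and 402 in rMDK 3 and 4 and 622 in rMDK 5, against 493 to 541 in controls. Ptger4 shares 82 exonic bases with Ttc33 on the opposite strand.

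Among the leukotriene receptors, Cysltr1, the high-affinity receptor for leukotriene D4, had 200.1, 225 and 149.8 normalized counts in rMDK 3, 4 and 5 against 277, 294 and 309 in control 1, 2 and 4. Its mean was 192 ± 38.3 in rMDK and 293 ± 15.9 in control libraries (SD, n = 3 each), a log2 fold change of −0.63 ± 0.188 SE (limma adjusted p = 0.144). It was lower in all 3 rMDK libraries, lowest in rMDK 5, and fell without rMDK 5 (−0.46, limma adjusted p = 0.0137). Cysltr2 had 49.6 to 89.0 in rMDK and 56.2 to 64.4 in control libraries. Ltb4r1, the receptor for leukotriene B4, a neutrophil attractant, had 143 to 236 and 180.0 to 210.1, with a log2 fold change of −0.0028.

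Both histamine receptors measured were lower in every rMDK library. Hrh1, which couples to Gq, had 8.70, 6.33 and 8.17 normalized counts in rMDK 3, 4 and 5 against 27.7, 17.4 and 18.7 in control 1, 2 and 4. Its mean was 7.73 ± 1.24 in rMDK and 21.3 ± 5.6 in control libraries (SD, n = 3 each), a log2 fold change of −1.33 ± 0.329 SE (limma adjusted p = 0.105). Hrh2, which couples to Gs, had 39.6, 37.0 and 43.6 normalized counts in rMDK 3, 4 and 5 against 65.6, 59.3 and 73.0 in control 1, 2 and 4. Its mean was 40.0 ± 3.33 in rMDK and 66.0 ± 6.84 in control libraries (SD, n = 3 each), a log2 fold change of −0.70 ± 0.198 SE (limma adjusted p = 0.135). Both fell without rMDK 5 (Hrh1 −1.37, limma adjusted p = 0.0144; Hrh2 −0.77, limma adjusted p = 0.0134). In this class alone every member lay apart in 1 direction, though it holds only 2 genes, and Hrh1 rests on 6 to 27 reads a library. Their summed level was 47.8 ± 4.26 in rMDK and 87.3 ± 9.17 in control libraries (mean ± SD, n = 3 each), while 4 of 7 markers of mast cells, basophils and eosinophils lay higher and 3 overlapped.

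The formyl peptide receptors, which draw neutrophils to bacterial and mitochondrial peptides, overlapped between the groups. Fpr1 had 138, 151 and 104 normalized counts in rMDK 3, 4 and 5 against 113, 78.8 and 125 in control 1, 2 and 4. Fpr2 had 496, 484 and 376 normalized counts in rMDK 3, 4 and 5 against 509, 299.6 and 566 in control 1, 2 and 4. Control 2 was lowest for both. The log2 fold change of Fpr1 was 0.32 (limma adjusted p = 0.462; called higher only with array weights, 0.46, adjusted p = 0.0183). That of Fpr2 was 0.022, and −0.26 without control 2. The summed neutrophil markers, a sum that S100a8 and S100a9 dominate, were higher in rMDK libraries. Of the 11 markers 8 lay higher, while Ltf, Cxcr2 and Elane overlapped between the groups. Cxcr2 and Elane lay above every control in rMDK 3 and 4 and below every control in rMDK 5. Fpr2 lay inside the control range in each rMDK library.

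Among the nucleotide receptors, which sense ATP, ADP, UDP and UDP-sugars set free by damaged cells, the members divided. P2ry14, the receptor for UDP-glucose, had 99.6, 131 and 104 normalized counts in rMDK 3, 4 and 5 against 159, 173 and 196 in control 1, 2 and 4. Its mean was 112 ± 16.9 in rMDK and 176 ± 18.8 in control libraries (SD, n = 3 each), a log2 fold change of −0.66 ± 0.182 SE (limma adjusted p = 0.132). It was lower in every rMDK library and fell without rMDK 5 (−0.61, limma adjusted p = 0.0106). P2ry2, activated by ATP and UTP, had 48.3, 66.5 and 171 normalized counts in rMDK 3, 4 and 5 against 31.8, 37.8 and 44.4 in control 1, 2 and 4. Every rMDK library lay above the controls, rMDK 5 by far the most (log2 fold change 1.10, limma adjusted p = 0.217; 0.58 without rMDK 5, adjusted p = 0.0955). P2ry6, the UDP receptor, had 311, 312 and 490.1 normalized counts in rMDK 3, 4 and 5 against 290.3, 252 and 257 in control 1, 2 and 4. It lay above the controls in each rMDK library and was highest in rMDK 5 (0.45; 0.23 without rMDK 5, limma adjusted p = 0.201). P2ry1, an ADP receptor, had 134, 128 and 128 normalized counts in rMDK 3, 4 and 5 against 90.3, 123 and 83.8 in control 1, 2 and 4. The rMDK values were close together and lay just above control 2 (0.41, limma adjusted p = 0.286). P2ry12 (10.9 to 26.4 in rMDK, 13.3 to 22.7 in control libraries) and P2ry13 (56.3 to 118 and 87.9 to 143), both ADP receptors that couple to Gi, overlapped.

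Of the adenosine receptors none lay apart with all 6 libraries. Adora3, which couples to Gi, had 21.3, 20.1 and 49.9 normalized counts in rMDK 3, 4 and 5 against 39.0, 39.9 and 46.4 in control 1, 2 and 4. It was lower in rMDK 3 and 4 and higher in rMDK 5 than any control, and fell without rMDK 5 (−0.98, limma adjusted p = 0.0101). Its exons share 779 bases with Tmigd3 on the same strand, so reads there cannot be assigned to 1 gene. Adora2a, which couples to Gs and dampens inflammation, had 91.8 to 121 in rMDK and 77.7 to 123 in control libraries, and Adora2b had 15.5 to 62.6 and 13.3 to 35.5.

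The proton-sensing receptors, which respond to an acid surrounding, lay on both sides of the controls. Gpr65, which raises cyclic AMP in acid, had 647, 756 and 682 normalized counts in rMDK 3, 4 and 5 against 516, 479 and 540.5 in control 1, 2 and 4. Its mean was 695 ± 55.7 in rMDK and 512 ± 31.1 in control libraries (SD, n = 3 each), a log2 fold change of 0.44 ± 0.142 SE (limma adjusted p = 0.169). It had the second highest mean of the set over all libraries and rose without rMDK 5 (0.45, limma adjusted p = 0.00828). Gpr4, known from endothelium, had 2.90, 2.11 and 0.908 in rMDK 3, 4 and 5 against 6.15, 10.2 and 9.86 in control 1, 2 and 4, which is 1 to 10 reads a library. Of the 5 stroma and endothelium markers tested, Col1a2 and Sparc of stroma lay lower, while the endothelial marker Cdh5 had 12.6, 9.50 and 8.17 normalized counts in rMDK 3, 4 and 5 against 6.15, 5.11 and 10.8 in control 1, 2 and 4, with overlap. Gpr132, a relative of this class that also responds to lipids, had 115, 72.8 and 109 normalized counts in rMDK 3, 4 and 5 against 149, 110.4 and 153 in control 1, 2 and 4. It overlapped because rMDK 3 exceeded control 2 (−0.48, limma adjusted p = 0.297; with array weights −0.83, adjusted p = 0.000427).

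Gpr183, the oxysterol receptor that positions B cells and DCs in lymphoid tissue, had 332, 317 and 164 normalized counts in rMDK 3, 4 and 5 against 385, 369 and 357 in control 1, 2 and 4. All rMDK values were lower than the controls, but by far the most in rMDK 5 (−0.52, limma adjusted p = 0.318; −0.19 without rMDK 5). Gpr35, a receptor for small metabolites, had 154, 165 and 65.3 normalized counts in rMDK 3, 4 and 5 against 95.4, 123 and 108 in control 1, 2 and 4. It was above the controls in rMDK 3 and 4 and below them in rMDK 5 (without rMDK 5, 0.56, limma adjusted p = 0.0181). Gpr55, a receptor for lysophosphatidylinositol, had 5.80, 4.22 and 9.08 normalized counts in rMDK 3, 4 and 5 against 9.23, 12.3 and 12.8 in control 1, 2 and 4. The gap between the groups is less than the value of 1 read. Gpr84, which senses medium-chain fatty acids, had 12.6 to 30.0 and 4.09 to 33.5, and Gpr18 had 19.97 to 40.6 and 21.7 to 32.8, both with overlap.

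**Figure D3:**
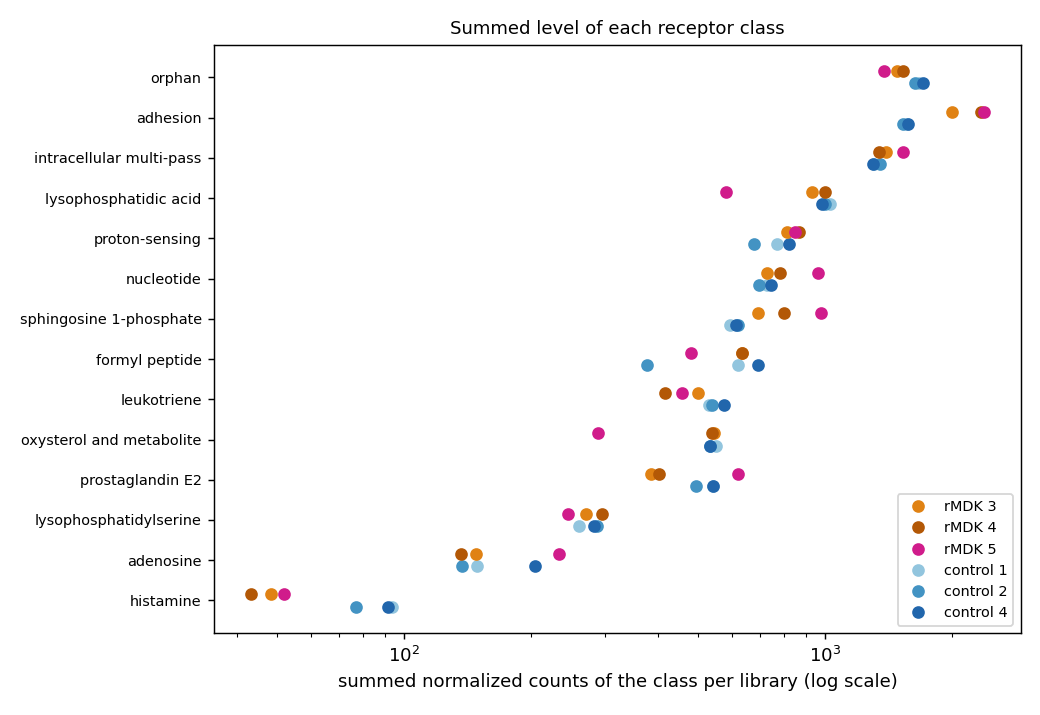
Summed normalized counts of each receptor class per library (x axis, log scale), with rMDK 3, 4 and 5 above control 1, 2 and 4 in each row. The adhesion class lay at 2004 to 2381 in rMDK and 1529 to 1572 in control libraries, and the histamine class at 43.3 to 51.7 and 76.7 to 93.3. Most of the difference in the adhesion sum lay in Adgre1 and Adgre5.

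Adhesion receptors carry long extracellular parts that bind neighbouring cells and matrix. They made up the largest class, with 16 members, of which 12 were tested, 4 lay higher, 2 lay lower and 6 overlapped, where 15.5% of all genes lay higher and 15.3% lower. Adgre1, the F4/80 antigen used to mark mouse macrophages, had 582, 919 and 761 normalized counts in rMDK 3, 4 and 5 against 429.8, 379 and 428 in control 1, 2 and 4. Its mean was 754 ± 169 in rMDK and 412 ± 28.6 in control libraries (SD, n = 3 each), a log2 fold change of 0.85 ± 0.191 SE (limma adjusted p = 0.092). It rose in DESeq2 (adjusted p = 0.00737) and in limma without rMDK 5 (0.83, adjusted p = 0.000790), while 7 of 10 other macrophage markers lay higher. Adgre5, which encodes the leukocyte protein CD97, had 529, 632 and 624 normalized counts in rMDK 3, 4 and 5 against 285, 380.4 and 301 in control 1, 2 and 4. Its mean was 595 ± 57.6 in rMDK and 322 ± 51.1 in control libraries (SD, n = 3 each), a log2 fold change of 0.89 ± 0.170 SE (limma adjusted p = 0.0788). It rose in DESeq2 (adjusted p = 0.00218) and in limma without rMDK 5 (0.85, adjusted p = 0.000291). Adgre5 lies on chromosome 8 (83723251 to 83741326, minus strand) and shares 895 exonic bases with Ddx39 on the opposite strand, which had 426 normalized counts in rMDK and 474 in control libraries on average. Adgre4, a relative of Adgre1 on mouse myeloid cells, had 55.1, 63.3 and 59.0 normalized counts in rMDK 3, 4 and 5 against 48.2, 35.8 and 46.4 in control 1, 2 and 4. The groups lay apart, with a log2 fold change of 0.45 (limma adjusted p = 0.282).

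The remaining adhesion receptors were less uniform. Adgrg6 had 20.3, 28.5 and 22.7 normalized counts in rMDK 3, 4 and 5 against 7.18, 15.3 and 18.7 in control 1, 2 and 4. Adgrl1, a latrophilin, had 159.5, 144 and 117 normalized counts in rMDK 3, 4 and 5 against 165, 177 and 167 in control 1, 2 and 4. Adgrg6 lay above and Adgrl1 below the controls in every rMDK library, and neither passed in limma without weights (0.83, adjusted p = 0.274, and −0.29, adjusted p = 0.386). Adgrl2, another latrophilin, had 59.9, 70.7 and 18.1 normalized counts in rMDK 3, 4 and 5 against 34.9, 34.8 and 42.4 in control 1, 2 and 4. It was above the controls in rMDK 3 and 4 and below them in rMDK 5 (without rMDK 5, 0.79, limma adjusted p = 0.0159). Adgrg1 had 193 to 361 in rMDK and 206 to 242 in control libraries, Adgrg3, a receptor of neutrophils, 188 to 252 and 203 to 253, and Adgrl4, known from endothelium, 66.5 to 82.2 and 43.1 to 70.0, all with overlap. Adgrg5 reached 50.8 and Adgra2 25.4 in rMDK 5, against at most 21.5 and 9.20 in any other library. Adgra3 had 0.908 to 6.33 in rMDK and 8.18 to 10.3 in control libraries, with no overlap. The summed level of the class was 2242 ± 207 in rMDK and 1554 ± 22.4 in control libraries (mean ± SD, n = 3 each). Most of this difference lay in its most abundant members, Adgre1 (means 754 in rMDK and 412 in control libraries) and Adgre5 (595 and 322). The sum is therefore no sign that the class moved together, and 6 of the 12 tested members overlapped.

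Some genes with a Gpr symbol encode multi-pass proteins of internal membranes rather than typical surface receptors. Gpr137b, a protein of the lysosomal membrane, had 209, 256 and 260.5 normalized counts in rMDK 3, 4 and 5 against 138, 118 and 136 in control 1, 2 and 4. Its mean was 242 ± 28.8 in rMDK and 131 ± 11.4 in control libraries (SD, n = 3 each), a log2 fold change of 0.88 ± 0.170 SE (limma adjusted p = 0.0788). It rose in DESeq2 (adjusted p = 0.00379) and in limma without rMDK 5 (0.82, adjusted p = 0.000750). Its near copy Gpr137b-ps, which the symbol rule leaves out, had 277, 286 and 230 in rMDK 3, 4 and 5 against 169, 188 and 179 in control 1, 2 and 4, and reads of the pair may be split between them. Gpr89, the Golgi pH regulator, had 277, 249 and 186 normalized counts in rMDK 3, 4 and 5 against 326, 325 and 278 in control 1, 2 and 4. It was lower in each rMDK library, but rMDK 3 and control 4 differed by less than 1 read's value (−0.40, limma adjusted p = 0.289; called lower only with array weights, −0.31, adjusted p = 0.0311). Gpr107, a Golgi protein, had 452, 387 and 381 normalized counts in rMDK 3, 4 and 5 against 394, 420.3 and 448 in control 1, 2 and 4. It overlapped, as did Gpr137 (73.5 to 78.1 in rMDK, 70.0 to 80.0 in control libraries). Gpr108 (316 to 536 and 310 to 344) overlapped in rMDK 3 and 4 and lay above all controls in rMDK 5. Gpr155 (29.0 to 34.5 and 24.7 to 35.8), Gpr180 (18.4 to 44.5 and 15.4 to 23.5) and Gpr137c (4.22 to 10.6 and 4.10 to 9.86) also overlapped.

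Among receptors with no settled ligand, 12 of 14 were tested, 1 lay higher, 2 lay lower and 9 overlapped, against the same 15.5 and 15.3% of all genes. Gpr171 had 337, 292 and 349.5 normalized counts in rMDK 3, 4 and 5 against 553, 506 and 579.9 in control 1, 2 and 4. Its mean was 326 ± 30.1 in rMDK and 546 ± 37.3 in control libraries (SD, n = 3 each), a log2 fold change of −0.74 ± 0.149 SE (limma adjusted p = 0.0788). It was lower in all 3 rMDK libraries and fell in DESeq2 (adjusted p = 0.00432) and in limma without rMDK 5 (−0.79, adjusted p = 0.000160). Gpr171 maps to chromosome 3 (59096448 to 59101821, minus strand). Gpr141 had 504, 461 and 430.2 normalized counts in rMDK 3, 4 and 5 against 602, 489 and 598 in control 1, 2 and 4. rMDK 4 and 5 lay below all controls and rMDK 3 above control 2 (−0.27, limma adjusted p = 0.359). Gpr157 had 206, 282 and 104 normalized counts in rMDK 3, 4 and 5 against 88.2, 135 and 108 in control 1, 2 and 4. It was above the controls in rMDK 3 and 4 and inside their range in rMDK 5 (0.74, limma adjusted p = 0.284; 1.14 without rMDK 5, adjusted p = 0.000314). Gpr82 had 11.6, 9.50 and 2.72 in rMDK 3, 4 and 5 against 25.6, 13.3 and 24.7 in control 1, 2 and 4, with no overlap (−1.44, limma adjusted p = 0.198). Gpr85 lay higher at low counts (10.6 to 19.1 in rMDK, 4.93 to 8.21 in control libraries). Gpr146 had 241 to 307 and 246 to 346, Gpr162 60.9 to 132 and 64.6 to 86.8, Gpr160 27.1 to 40.8 and 22.7 to 38.9, and Gpr27 19.97 to 29.6 and 7.16 to 21.5, in rMDK and in control libraries in that order, all with overlap. Gpr12, Gpr19 and Gpr176 stayed at or below 16.3 in every library and overlapped.

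The 3′ end method reads 1 fragment per transcript, so levels of different genes are set side by side here without scaling to length. How fully the reads of each gene were assigned was not tested, and Lpar6 shares 408 exonic bases with Rb1. In control libraries Lpar6 was the most abundant (mean 930.0) and lay above the range of all others. Gpr141 (563), Gpr171 (546), Gpr65 (512), Fpr2 (458), Ptger4 (441), Gpr107 (421), Adgre1 (412) and Gpr183 (370.3) followed, and each of these neighbours in the order had overlapping control values. A gap followed between Gpr183 and Gpr108 (323). In rMDK libraries Lpar6 (774) and Adgre1 (754) led, followed by Gpr65 (695) and Adgre5 (595). Of the 78 receptors, 56 had a mean of at least 20 over all libraries.

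Position along the chromosome was compared with the values. With gaps of at most 200000 bp, 24 receptors fell into 10 runs of neighbours. On chromosome 3, Gpr171, P2ry14, P2ry13 and P2ry12 follow each other on the minus strand with gaps of 12034, 54274 and 5390 bp. Their log2 fold changes were −0.74, −0.66, −0.38 and −0.14 in that order, and only those of Gpr171 and P2ry14 came with groups apart. On chromosome 7, P2ry6 and P2ry2, 21919 bp apart, both lay higher (0.45 and 1.10). On the X chromosome, P2ry10, P2ry10b and Gpr174 had −0.14, 0.64 and −0.71, and Gpr34 and Gpr82 had −0.019 and −1.44. On chromosome 8, Adgrg5, Adgrg1 and Adgrg3 had 0.24, 0.21 and −0.016. Adgre5 and Adgrl1, 158779 bp apart on the same chromosome, had 0.89 and −0.29, both with groups apart but in opposite directions. On chromosome 17, Fpr1 and Fpr2 had 0.32 and 0.022, and Gpr108 and Adgre1 had 0.24 and 0.85. On chromosome 14, Gpr18 and Gpr183 had 0.26 and −0.52, and Cysltr2 and Lpar6 had 0.14 and −0.33. By sign alone, neighbours thus shared a direction in some runs and not in others, and many of these genes overlapped between the groups.

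**Figure D4:**
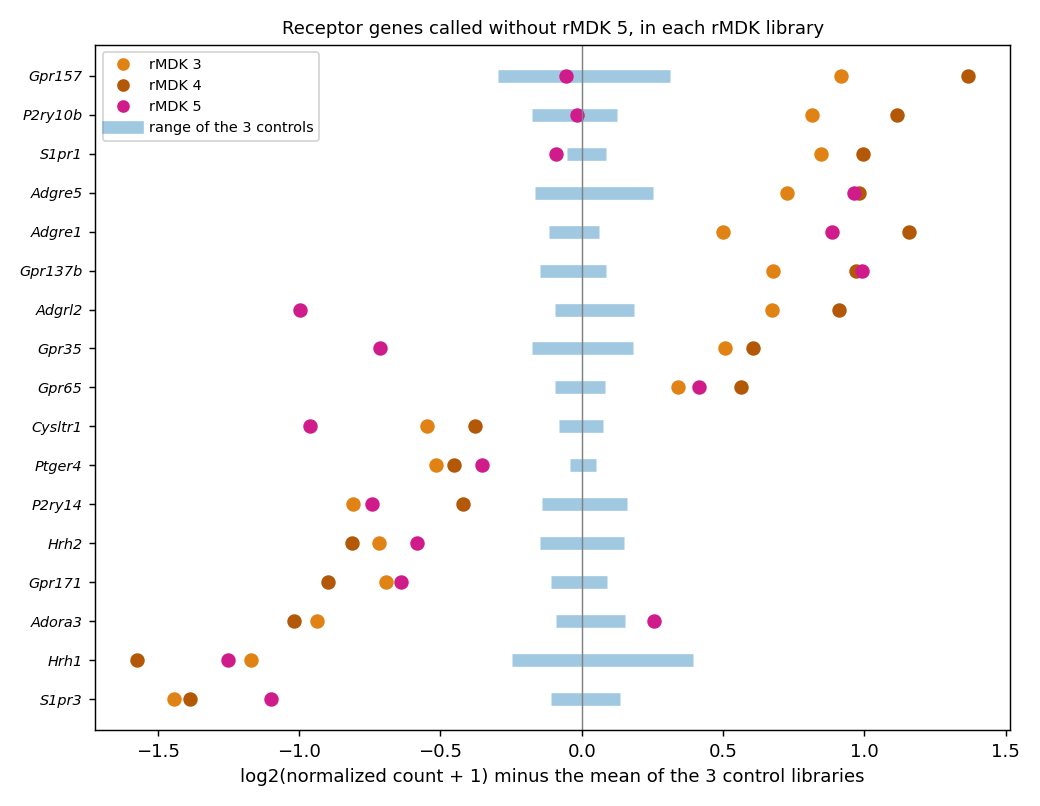
Of the receptor genes called by limma without rMDK 5, 17 are drawn: log2(normalized count + 1) minus the mean of the 3 control libraries (x axis) in rMDK 3, 4 and 5 (points), with the range of the 3 controls as a bar. rMDK 5 lay with rMDK 3 and 4 outside the controls for 11 of these genes and inside or on the other side for Adgrl2, Adora3, Gpr35, Gpr157, P2ry10b and S1pr1.

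Calls made without rMDK 5 were compared with that library. Of the 18 receptors called without it, 12 (66.7%) lay on the same side of the control mean in rMDK 5, against 78.9% of the 2497 genes called in this way. The same 12 (66.7%) lay apart with all 6 libraries, against 72% of those 2497 genes. Among them were Adgre1, Adgre5, Gpr65 and Gpr137b higher, and S1pr3, Gpr171, Hrh1, Hrh2, P2ry14, Cysltr1 and Ptger4 lower. Adgrl2, Gpr35 and S1pr1 were higher and Adora3 lower in rMDK 3 and 4, with rMDK 5 beyond the controls on the other side, and Gpr157 and P2ry10b were at the control level there. All 6 receptors called by DESeq2 were among the 18.

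Genes that act together with the receptors were read from 4 lists of partners. Of these lists limma called 0 genes with all 6 libraries (unadjusted p under 0.05: 2 to 5 higher and 0 to 3 lower in each list). For comparison, 19.7% of all genes tested had an unadjusted limma p under 0.05, 15.5% lay higher and 15.3% lower. DESeq2 called 4.43% of all genes (2.97% higher, 1.46% lower). Of 20 G protein subunits tested, 6 lay higher and 1 lower (median log2 fold change 0.17), and DESeq2 called Gna12, the subunit of G12. Gna12 had 199, 222 and 159 normalized counts in rMDK 3, 4 and 5 against 115, 128 and 91.7 in control 1, 2 and 4. Gnb2, a beta subunit, had 1709, 2078 and 5329 normalized counts in rMDK 3, 4 and 5 against 1587, 1310.0 and 1207 in control 1, 2 and 4. Gnaz, of the Gi family, had 160.5, 154 and 182 normalized counts in rMDK 3, 4 and 5 against 115, 129.9 and 119 in control 1, 2 and 4. All 3 lay higher in every rMDK library. Of 16 RGS proteins, receptor kinases and arrestins, which end or dampen signals, 5 lay higher and 2 lower (median 0.23). Rgs2 had 2529.9, 3040.2 and 3493 normalized counts in rMDK 3, 4 and 5 against 1658, 1651 and 1400.5 in control 1, 2 and 4. Rgs1 had 259, 397 and 391 normalized counts in rMDK 3, 4 and 5 against 160.0, 174 and 79.9 in control 1, 2 and 4. Both switch off G proteins by speeding GTP hydrolysis, lay higher in each rMDK library and rose in DESeq2 (adjusted p = 0.000483 for Rgs2 and 0.00357 for Rgs1). Rgs12 had 60.9, 53.8 and 42.7 normalized counts in rMDK 3, 4 and 5 against 92.3, 116 and 91.7 in control 1, 2 and 4, and fell in DESeq2 (adjusted p = 0.0247).

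Of 20 effectors of cyclic AMP and phospholipase C, 4 lay higher and 3 lower (median 0.18). Plcb3, a phospholipase C activated by Gq, had 79.3, 78.1 and 63.5 normalized counts in rMDK 3, 4 and 5 against 122, 114 and 116 in control 1, 2 and 4. Creb1, a transcription factor that responds to cyclic AMP, had 637, 650.3 and 618 normalized counts in rMDK 3, 4 and 5 against 840.0, 887 and 809.7 in control 1, 2 and 4. Crem, its relative, had 36.7, 62.3 and 45.4 normalized counts in rMDK 3, 4 and 5 against 20.5, 29.7 and 24.7 in control 1, 2 and 4. Prkaca, a catalytic subunit of protein kinase A, had 332, 433 and 1510.4 normalized counts in rMDK 3, 4 and 5 against 252, 235 and 295 in control 1, 2 and 4. It rose in DESeq2 (adjusted p = 0.0297), with rMDK 5 far above the rest. Prkacb, another catalytic subunit, had 879, 824 and 411 normalized counts in rMDK 3, 4 and 5 against 835, 846 and 813 in control 1, 2 and 4, with overlap. Of 23 enzymes that make or remove the ligands, 9 lay higher and 1 lower (median 0.36). Alox5, the first enzyme of leukotriene synthesis, had 157, 157 and 168 normalized counts in rMDK 3, 4 and 5 against 89.2, 80.8 and 113 in control 1, 2 and 4, and rose in DESeq2 (adjusted p = 0.0317). Hdc, which makes histamine, had 482, 429 and 355 normalized counts in rMDK 3, 4 and 5 against 260.5, 292 and 290.0 in control 1, 2 and 4. Sgpp1, which dephosphorylates sphingosine 1-phosphate, had 248, 270.2 and 388 normalized counts in rMDK 3, 4 and 5 against 223, 213 and 178 in control 1, 2 and 4. Alox5 and Hdc thus lay higher in every rMDK library while Cysltr1, Hrh1 and Hrh2 lay lower. Of the same list, Lta4h and Hnmt also lay higher, while Alox5ap and Ltc4s overlapped, as did the leukotriene receptors Cysltr2 and Ltb4r1. Among prostaglandin enzymes, Ptgs1 and Ptges lay higher and Ptgs2, Ptges2, Ptges3 and Hpgd overlapped. Of the prostaglandin receptors, Ptger2 lay higher, Ptger4 lower and Ptger3 overlapped. The enzyme that lay lower was Enpp2 (mean 12.3 in rMDK and 25.2 in control libraries), while the lysophosphatidic acid receptors tested overlapped. Any link between enzymes and receptors was not tested. Ch25h, Cyp7b1 and Hsd3b7, enzymes of oxysterol metabolism, had no value. Over all genes tested 15.5% lay higher and 15.3% lower.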

How the data were processed

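Per the labels' protocols, total RNA was turned into 3′ end libraries (Lexogen QuantSeq, forward version). Per the labels and the deposited table's own title, each value is a normalized count of a gene symbol (unit: signal). Tools listed in the submitters' processing notes are HTSeq, DESeq2, SAMtools 0.1.19, TopHat2 2.0.10, Bowtie 1.0.0 and FastQC 0.11.0, with GRCm38 (mm10) as build. The sources used here do not give the annotation release, the strand setting or the handling of multi-mapping reads, so reads of overlapping or near-identical genes cannot be told apart. Dividing each column by its smallest step gave whole reads for 100% of values (tolerance 0.01 reads), as for counts that the authors divided by 1 size factor per library. A floor of 3 reads was at most 5.01e-05% of a library, which covers counting error only. There were 0 other columns of per-sample values.

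The main test was limma 3.58.1 (R 4.3.3, eBayes with trend) on log2(normalized count + 1) over genes with a mean of at least 5, two-sided, with Benjamini-Hochberg adjustment over all 13543 genes. Alternatives on the recovered reads were DESeq2 1.42.0 and the quasi-likelihood test of edgeR 4.0.16 with TMM scaling. limma and edgeR were first tested on simulated counts. "Apart" means that the 3 rMDK values all lie above or all below the 3 control values. Other settings changed the pseudocount, filter, scaling, library weights and libraries. edgeR without rMDK 5 was added after the data were seen. The members, lists and rules were chosen with earlier results of these data known. Values per library were to be given for receptors with a mean of at least 20 and groups apart, the 10 most abundant, and any called in a setting with all 6 libraries. The other receptors are given by range. From each partner list, up to 3 genes with a mean of at least 20 and the smallest unadjusted p were to be named, plus any called. Classes by ligand were assigned by hand. Figures were drawn with matplotlib 3.10.9. Some genes are not reported here by name, though counts and sums include them.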

Additional observations from a re-analysis of the deposited data

How the results depend on the processing

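With all 6 libraries, limma called 0 of 13543 genes and 0 of 71 receptors. The number of genes called was 10 with edgeR, 684 with DESeq2, 10 with a pseudocount of 5, 9 with no filter on the mean, 16 with quantile normalization, 7 with TMM scaling and 5076 with array weights. The number of receptors called was 6 with DESeq2 and 33 with array weights (16 higher, 17 lower, background 37.5%). It was 0 with the other settings that used all 6 libraries. The array weights of rMDK 3, 4 and 5 were 0.727, 4.36 and 0.0967, so the weighted calls rest mostly on rMDK 4 among these. Leaving out 1 library at a time, genes called ranged from 0 to 2497 and receptors called from 0 to 18, with calls only without rMDK 5. edgeR without rMDK 5 called 2508 genes and 18 receptors. The median log2 fold change of the receptors was −0.031 with array weights and −0.0097 with edgeR without rMDK 5, and ranged from −0.018 (without rMDK 5) to 0.21 (without rMDK 4) over the leave-one-out fits. The number of receptors with groups apart ranged from 28 to 38 when 1 library was left out, the 38 without rMDK 5, where 47.6% of all genes lay apart. Fewer libraries separate the groups more easily for every gene.

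Of 39 receptors named by rule, 7 changed the sign of the log2 fold change in some setting. Fpr2 was −0.026 with edgeR, −0.020 with DESeq2, −0.022 with quantile normalization, −0.051 without rMDK 3, −0.034 without rMDK 4 and −0.26 without control 2. Without control 4 it was 0.20. Without rMDK 3, Adgrl2 was −0.043 and Gpr35 −0.056, without rMDK 4 −0.16 and −0.10, and without rMDK 5 0.79 and 0.56. Without rMDK 4, Lpar1 was 0.11 and Lpar2 0.067, against −0.67 and −0.62 without rMDK 5. Gpr107 was 0.0047 with edgeR without rMDK 5, and Lpar6 0.0068 with array weights. The cause was not tested. No paired analysis was possible because the groups share only replicate number 4. Depth limits the low receptors: Gpr4 rests on 1 to 10 reads and Hrh1 on 6 to 27 reads a library.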
